A study of Caenorhabditis elegans with 6 samples.

Results

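The long intergenic noncoding RNAs (lincRNAs) of Caenorhabditis elegans are described here in whole wild-type worms with and without fluorodeoxyuridine (FUDR). Members were all genes of the count table whose biotype is lincRNA in the Ensembl annotation of the genome build WBcel235. This rule uses no expression value and gave 194 of 46926 genes. The study sequenced poly(A)-selected RNA from whole worms labelled L4, the last larval stage, with genotype WT in every library. The 3 untreated libraries came from worms on plates of the bacterium Escherichia coli OP50, and the 3 treated libraries from worms given 50 µM FUDR. The comparison asks which transcripts differ between these libraries after exposure to FUDR. This pyrimidine nucleoside drug blocks thymidylate synthase and so starves DNA synthesis of thymidine nucleotides. The stage is given as the labels state it, and the stage at harvest was not tested. Whole worms were used, so each library holds RNA of all tissues, germ line included.

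LincRNAs are RNA polymerase II transcripts that lie between protein-coding genes and have no long open reading frame, and many are spliced and polyadenylated. They are usually less abundant than messenger RNAs and more restricted in stage or tissue, and for most C. elegans members no function is known. The best described member, lep-5, works in the heterochronic pathway, which times the passage from larva to adult: together with the Makorin protein LEP-2 it lowers the RNA-binding protein LIN-28.

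Libraries held between 61312034 and 99234226 counts over genes. Levels are given in CPM, counts that TMM normalization puts on one scale of depth, and 3 counts corresponded to between 0.0315 and 0.0496 CPM. Of 12 germline marker genes 11 were called lower with FUDR, and their summed level ran from 5460 to 5677 CPM with OP50 and from 2480 to 3334 CPM with FUDR. All 10 oocyte markers were called lower, with sums of 5071 to 5358 CPM and 1797 to 2397 CPM. Of 12 neuronal markers 3 were called higher and 0 lower, with sums of 442 to 499 CPM and 475 to 537 CPM. Sperm markers, 13 genes for 12 listed symbols, had 3 higher and 1 lower, with sums of 292 to 317 CPM and 320 to 364 CPM. With OP50 the oocyte sum was thus far above the sperm sum, and how this relates to the labelled stage was not tested. Intestinal markers had 2 of 9 higher and 1 lower, body wall muscle markers 1 of 10 higher and 0 lower, and epidermal markers 0 of 10 higher and 3 lower. Over all 17022 tested genes 20% were called higher and 21% lower. None of these markers was at 0, and in whole worms fewer cells of a type and less RNA per cell cannot be told apart. The part of these shifts in the lincRNA results was not tested.

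The 194 lincRNAs were spread over all chromosomes, with 23 on chromosome I, 43 on II, 29 on III, 26 on IV, 35 on V and 38 on X. Of these, 169 carry a linc- symbol and 25 another name. Merged exonic length ran from 101 to 4183 bp with a median of 449 bp, and 56 members were a single exon block. Many lay close to coding genes: 61.3% were at most 1000 bp from the nearest protein-coding gene, counting overlap as 0, and the median distance was 638 bp. Only 12 were more than 5 kb away. In spite of the class name, 42 overlapped the body of a protein-coding gene, 8 of them inside that gene with no shared exon. An exon was shared with some other gene by 61 members, in 32 cases with a gene on the opposite strand. The strand setting of the counting is not given in the sources used here, so reads of such pairs cannot be told apart.

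Most lincRNAs were scarce. No count was seen for 30 of the 194 in any library, and 164 had at least 1 count. The filter on low counts left 78 for testing, with a median level of 0.427 CPM against 11.5 CPM for the tested protein-coding genes. Under 1 CPM lay 54 of the 78, and 4 reached 10 CPM. Per kilobase of exon, lep-5 led with 323 RPKM (TMM-normalized CPM per 1000 bp), above 97.9% of all tested genes. It was followed by linc-7 at 49.9 RPKM, which stood above 86.0%. M04F3.7 at 13.7, linc-4 at 12.4, linc-15 at 10.6 and Y71F9AM.9 at 9.64 RPKM came next, in the middle of the distribution of all tested genes.

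More lincRNAs were detected with FUDR. The OP50 libraries held at least 1 count for 129, 114 and 115 members and the FUDR libraries for 137, 142 and 142. Scaled to the smallest total of gene counts, these expected numbers were 120, 113 and 110 against 137, 137 and 137. Scaled to the smallest total after TMM, they were 121, 114 and 112 against 136, 135 and 135. All FUDR libraries listed more members than any OP50 library on both scales. Over all genes the values at equal totals were 20345, 20011 and 19921 against 20982, 21231 and 21069, so detection was broader with FUDR across the whole table too.

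Summed over all 194 members, the lincRNA level was 258, 265 and 265 CPM with OP50 and 384, 404 and 490 CPM with FUDR. The groups did not overlap, and the means were 263 ± 3.98 and 426 ± 56.2 CPM (SD, n = 3), a ratio of 1.62. This sum was dominated by 1 gene, since lep-5 held between 50.0% and 55.6% of all lincRNA counts in each library. Without lep-5 the sum was 119.4 ± 5.45 CPM with OP50 and 204 ± 17.5 CPM with FUDR (SD, n = 3), a ratio of 1.71. As a share of all gene counts, lincRNAs took 0.0243% with OP50 and 0.0463% with FUDR.

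**Figure D1:**
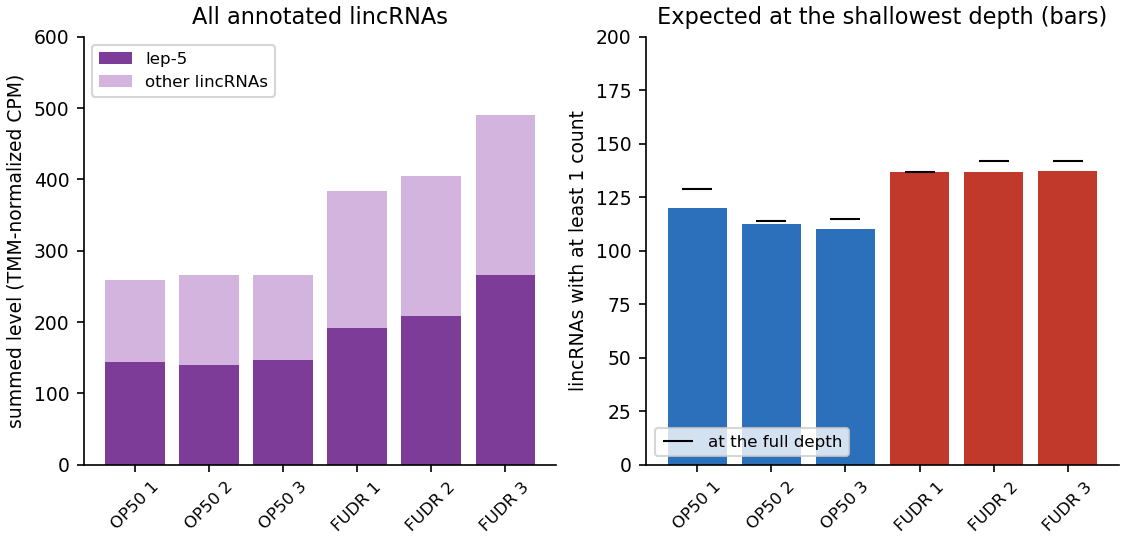
Summed level of all 194 lincRNAs in each of the 6 libraries, in TMM-normalized CPM, with lep-5 and all other members stacked in each bar (left), and the number of lincRNAs with at least 1 count, scaled to the smallest total of gene counts (bars) and at full depth (lines) (right). The FUDR libraries stand at 384 to 490 CPM and the OP50 libraries at 258 to 265 CPM, and at equal total counts 137 lincRNAs are counted in each FUDR library against 110 to 120 with OP50.

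Across single members the shift was mostly upward. Of the 78 tested lincRNAs, 27 rose with FUDR (34.6%) and 2 fell (2.56%) by edgeR's quasi-likelihood test at an adjusted p under 0.05, and 49 were not called. In the same fit 20% of all 17022 tested genes were called higher and 21% lower. That split depends on the scaling: it was 29.2% and 14.6% with upper-quartile scaling, and 34.2% and 11.3% with library size alone. The rises included 23 of at least 2-fold, against 1 such fall. The median log2 fold change was 0.61, with quartiles of 0.04 and 1.46, beside 0.05 for all tested genes, and 60 of the 78 estimates were above 0. All 3 FUDR libraries lay above all 3 OP50 libraries for 40 members, where 28% of all tested genes did so, and below them for 5, where the figure was 26.7%. These counts describe the members that passed the filter: 50 reached its level in all 6 libraries, 13 passed through the FUDR libraries alone and 0 through the OP50 libraries alone. Passing through the FUDR libraries alone already required a high FUDR level. Before TMM it also fixed that the groups do not overlap, and 10 of those 13 were called higher. Of the 50 members that reached the level in all 6 libraries, 11 (22%) were called higher and 2 (4%) lower, with a median log2 fold change of 0.32, beside 19.0% higher, 22.8% lower and a median of 0.02 among the 15598 genes that did so. The share called higher among these 50 was therefore near that of all genes, and 16 of the 27 rises were in members that passed in other ways. With a filter that ignores the groups (60 counts over all libraries, chosen after seeing the data), 23 of 73 members were called higher, beside 19.9% of all genes. Such a total can come almost wholly from the FUDR libraries, as for linc-37 and linc-38. This count is therefore not free of the same selection.

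Direction was also taken without the filter on low counts, over every member with at least 1 count. These include the 78 tested members, so this view is not independent of the calls above. Of the 164 members with any count, 126 (76.8%) had the higher mean CPM with FUDR, beside 56.6% of the 25116 genes with a count, 55.8% of protein-coding genes, 59.5% of genes of biotype ncRNA and 57.3% of pseudogenes. Among the 86 counted but untested members the number was 67 (77.9%), beside 62.2% of all untested genes. Together these 86 had 212, 117 and 147 counts with OP50 and 220, 331 and 420 with FUDR. Scaled for depth this was 2.23, 1.93 and 2.02 CPM against 3.50, 3.58 and 4.71 CPM, without overlap of the groups. Over all untested genes the counts were also higher with FUDR, 53104 against 35179 with OP50. The higher mean with FUDR was seen for 66.5% of untested protein-coding genes, 58.5% of untested ncRNA genes and 60.9% of untested pseudogenes. Counts in FUDR libraries alone were found for 23 untested members, and in OP50 libraries alone for 3, which fixes the direction of their means. The matching numbers over all untested genes were not computed.

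**Figure D2:**
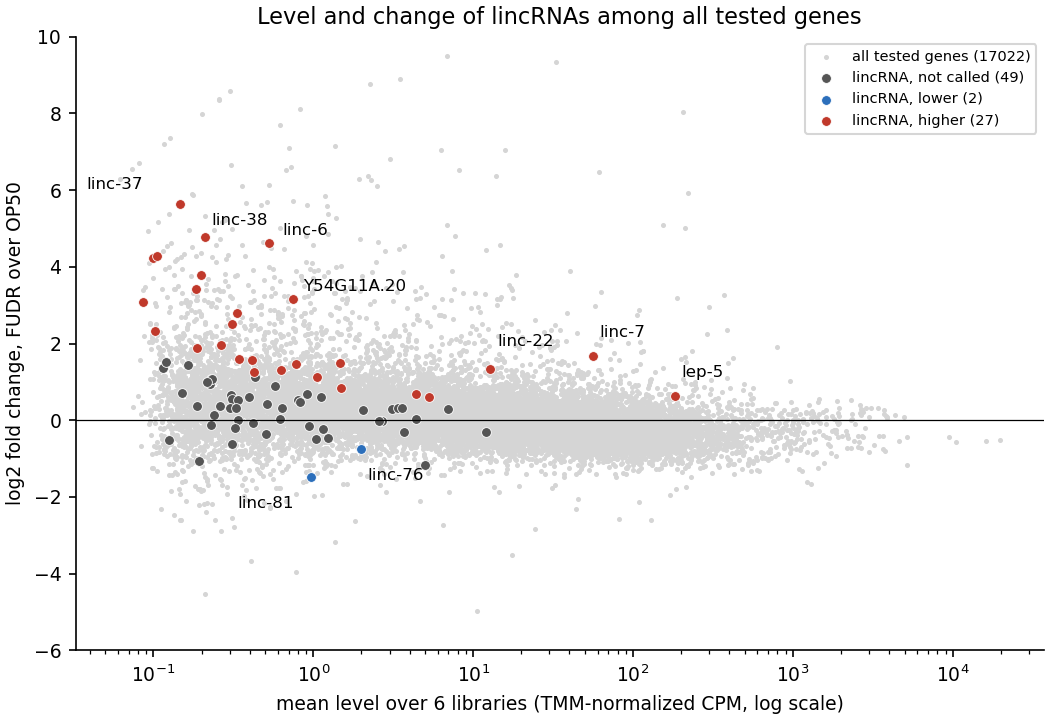
Log2 fold change, FUDR over OP50, against mean level in CPM (log axis) for all tested genes and for the 78 tested lincRNAs, with called members coloured. The 27 called higher spread over the whole range of levels, up to lep-5 at 0.63 on the log2 scale.

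The shift differed between classes of mean level. Among members under 0.5 CPM, 15 of 40 rose (37.5%) and 0 fell, where 18.7% of all genes at that level were higher and 2.25% lower, with medians of 1.08 and 0.47 on the log2 scale. This class held 12 members that passed the filter through the FUDR libraries alone, 9 of them called higher. Without these and the 276 such genes among all, 6 of 28 members (21.4%) and 9.80% of all genes were higher. This does not remove the selection in full. Over all levels 15 further members missed the filter's level in some libraries, 6 of them called higher and 0 lower, and were not taken out. Between 0.5 and 2 CPM, 7 of 22 members rose and 2 fell, beside 25.1% and 3.27% of all genes, and the medians were 0.50 and 0.38. Between 2 and 10 CPM the members were close to the rest: 2 of 12 rose (16.7%), beside 28.1% of all genes, and the medians were 0.28 and 0.21. Of the 4 members at 10 CPM or more, lep-5, linc-7 and linc-22 rose. The fourth, Y9D1A.1 on chromosome II, was at 13.3 ± 1.73 CPM with OP50 and 10.7 ± 3.90 CPM with FUDR (SD, n = 3) and was not called (adjusted p = 0.352). At that level 15.01% of all genes were higher and 36.9% lower, and the medians were 0.98 for the 4 members and −0.15 for all genes.

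**Figure D3:**
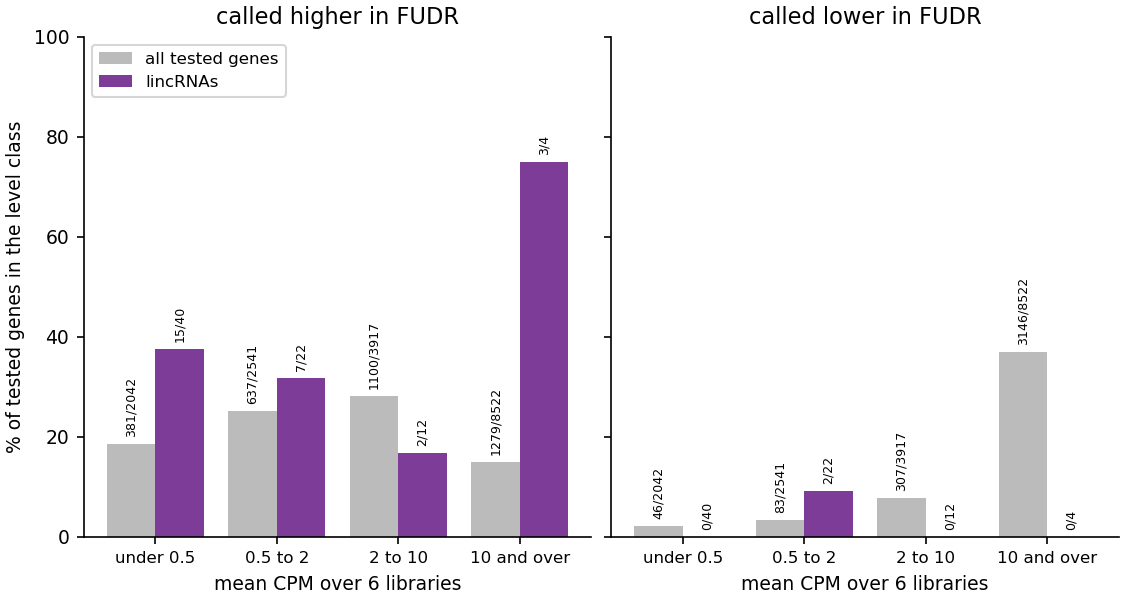
Percent of tested genes called higher and called lower in 4 classes of mean CPM, for lincRNAs and for all tested genes, with the counts above each bar. Under 0.5 CPM, 37.5% of the lincRNAs were called higher against 18.7% of all genes, and between 2 and 10 CPM 16.7% against 28.1%. Without genes that passed the filter through the FUDR libraries alone, the shares under 0.5 CPM were 21.4% and 9.80%. Other genes that missed the filter's level in some libraries were not taken out.

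The most abundant member, lep-5, rose modestly. It lies on the minus strand of chromosome X (12652591 to 12653520, WBcel235) and overlaps no other gene. Its level was 144, 140 and 147 CPM with OP50 and 192, 208 and 266 CPM with FUDR. The OP50 values were tight and every FUDR value was above them. The log2 fold change was 0.63 ± 0.124 (SE), 1.55-fold, with an edgeR adjusted p of 0.00413. The call was lost only in the test against a 1.5-fold change, among the alternatives run.

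The genes that lep-5 works with did not move as a group. Of 5 timing genes 1 was called higher and 1 lower. The Makorin gene lep-2 was at 38.05 ± 0.850 and 38.4 ± 1.56 CPM (SD, n = 3; adjusted p = 0.910). The lin-28 transcript, whose protein keeps larval programmes running, was at 34.5 ± 0.987 and 29.3 ± 2.62 CPM, a log2 difference of −0.24 that was not called (adjusted p = 0.0623). It was called lower with RLE scaling (0.0461) and without FUDR replicate 3 (0.0248). Its downstream transcription factor gene lin-29 had a log2 difference of 0.02. The LIN-29 cofactor gene mab-10 fell by 0.78 on the log2 scale (adjusted p = 0.0197), and lin-46, which acts downstream of lin-28, rose by 0.64 (0.0332). The mab-10 call was lost without OP50 replicate 1 (0.0523) or FUDR replicate 2 (0.0542), and the lin-46 call without any one library other than FUDR replicate 1 (0.0527 to 0.106).

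The other long noncoding RNAs with a described role differed in their behaviour. The transcript tts-1, annotated as ncRNA and known from long-lived worms, where it associates with ribosomes, had 9395, 294 and 147 counts with OP50 and 2714, 2969 and 764 with FUDR. OP50 replicate 1 stood far above the other libraries of its group, the groups overlapped, and the gene was not called (adjusted p = 0.879). Without OP50 replicate 1 it was called higher, by 3.02 on the log2 scale (adjusted p = 0.0143). The ncRNA rncs-1, an inhibitor of Dicer, rose from 9.98 ± 1.48 to 16.5 ± 2.57 CPM (SD, n = 3), by 0.72 on the log2 scale (adjusted p = 0.00551). Among the members with a described role, linc-73, whose neighbour 625 bp away is the kinesin gene unc-104, had 4, 0 and 1 counts with OP50 and 2, 7 and 12 with FUDR and was not tested. The unc-104 transcript itself was at 31.7 ± 1.57 and 33.6 ± 1.72 CPM (SD, n = 3). No count of linc-3 was found in any library.

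Among abundant members linc-7 and linc-22 rose by more than lep-5. Expression of linc-7, on the plus strand of chromosome X (16002599 to 16003728), was 23.5, 28.5 and 29.0 CPM with OP50 and 76.5, 82.3 and 98.2 CPM with FUDR. The lowest FUDR library was well above the highest OP50 library, and the fold change was 3.17 (log2 1.67 ± 0.122 SE, adjusted p = 7.07e-05). It sits inside C09G1.4, a protein-coding gene on the opposite strand, and shares no exon with it. C09G1.4 itself was at 7.17 ± 0.123 and 7.06 ± 0.187 CPM (SD, n = 3), a log2 difference of −0.02 (adjusted p = 0.886). The member linc-22 (chromosome X, 9069138 to 9073735, plus strand) was at 7.52, 7.46 and 6.90 CPM with OP50 and at 16.5, 18.7 and 19.7 CPM with FUDR. Both sets were tight and far apart, 2.51-fold (log2 1.33 ± 0.107 SE, adjusted p = 0.000111). It shares 4.37% of its exonic bases with a small nucleolar RNA gene and a pair of piRNA genes.

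The largest relative rises above 0.5 CPM were in members nearly silent without FUDR. The short transcript linc-6 (chromosome X, 1982710 to 1982883, minus strand, 174 bp) had 3, 4 and 2 counts with OP50 and 45, 91 and 121 with FUDR. It was within a few reads of 0 in every OP50 library and near 1 CPM on average with FUDR, with means of 0.0417 ± 0.0212 and 1.02 ± 0.321 CPM (SD, n = 3). The fold change was 24.8 (log2 4.63 ± 0.467 SE, adjusted p = 0.000232), and 22.99% of its bases are shared with the ncRNA gene F52D2.14. This member passed the filter through the FUDR libraries alone. Y54G11A.20 (chromosome II, 14312560 to 14313131, plus strand) had 15, 10 and 9 counts against 99, 125 and 101. It overlaps no other gene, its groups were far apart, and the fold change was 8.99 (log2 3.17 ± 0.294 SE, adjusted p = 0.000176).

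A middle tier of members above 0.5 CPM rose 2- to 3-fold, and they lay mostly on chromosome II. The minus-strand lincRNA linc-46 (chromosome II, 1990692 to 1991487) was at 0.978, 0.760 and 0.563 CPM with OP50 and 2.07, 2.01 and 2.40 CPM with FUDR. The groups were well separated, by 1.48 ± 0.237 (SE) on the log2 scale (adjusted p = 0.00157). C16C4.19 (chromosome II, 1892105 to 1892567, minus strand) was at 0.389, 0.546 and 0.316 CPM and at 1.21, 1.22 and 0.997 CPM, a log2 rise of 1.46 ± 0.282 (SE) with an adjusted p of 0.00372. Its lowest FUDR value was clearly above its highest OP50 value. For linc-125 (chromosome II, 7238948 to 7242909, plus strand) the values were 0.473, 0.231 and 0.357 CPM and 0.668, 1.06 and 0.953 CPM, a log2 rise of 1.32 ± 0.339 (SE; adjusted p = 0.0140). For linc-34 (chromosome X, 13400747 to 13401468, minus strand) they were 0.662, 0.645 and 0.687 CPM and 0.955, 1.30 and 2.11 CPM, a log2 rise of 1.13 ± 0.308 (SE; adjusted p = 0.0175). In both cases the groups did not overlap but a FUDR library lay near the OP50 range. The linc-125 call was lost without FUDR replicate 2 (adjusted p = 0.0627), and the linc-34 call without OP50 replicate 1 (0.0512), OP50 replicate 2 (0.0524) or FUDR replicate 3 (0.0550). An exon of linc-125 is shared with another gene.

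Several rarer members had a few reads with OP50 and more with FUDR. These fall outside the rule for named members and were picked with their values in view. Apart from linc-72, those described next passed the filter through the FUDR libraries alone, which required a high FUDR level, so their adjusted p-values are descriptions and not independent support. The member linc-37 (chromosome III, 832984 to 833347, plus strand) had 1, 0 and 0 counts with OP50 and 18, 21 and 32 with FUDR. The depth-adjusted ratio of the summed counts was 66.3, with a 95% counting interval of 11.5 to 2657, and the adjusted p was 0.000911. A single read in OP50 replicate 1 fixes this ratio, and without that library the fitted log2 value went from 5.63 to 7.47. The member linc-38 (chromosome V, 10276942 to 10277353, minus strand) had 1, 1 and 1 counts against 23, 27 and 50, a ratio of 31.1 (10.4 to 154, adjusted p = 0.000587). For linc-107 the counts were 1, 1 and 0 against 13, 19 and 17, and for linc-122 they were 1, 1 and 0 against 9, 19 and 20. Both lie on chromosome II, and their adjusted p-values were 0.00225 and 0.00286. All 6 OP50 counts of linc-84 came from OP50 replicate 1, against 33, 34 and 21 with FUDR (log2 3.80, adjusted p = 0.00728), and without that library the log2 value was 7.82. Of linc-39 there were 3, 2 and 2 counts against 10, 24 and 53. Its log2 rise of 3.42 (adjusted p = 0.00455) was 2.73 without FUDR replicate 3, the highest library. In linc-74 they were 11, 6 and 2 against 56, 43 and 35, a log2 rise of 2.79 (adjusted p = 0.0046). The linc-72 counts were 13, 2 and 7 against 25, 24 and 84, where again FUDR replicate 3 was highest, and its log2 rise of 2.50 (adjusted p = 0.0133) was 1.79 without that library. An exon of linc-72 is shared with another gene and its body overlaps F46C5.1 on the opposite strand, so shared reads cannot be told apart. In every case all FUDR libraries lay above all OP50 libraries, after scaling for depth. Apart from linc-72, the way these members passed the filter already required this separation before TMM, so it is no further support.

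**Figure D4:**
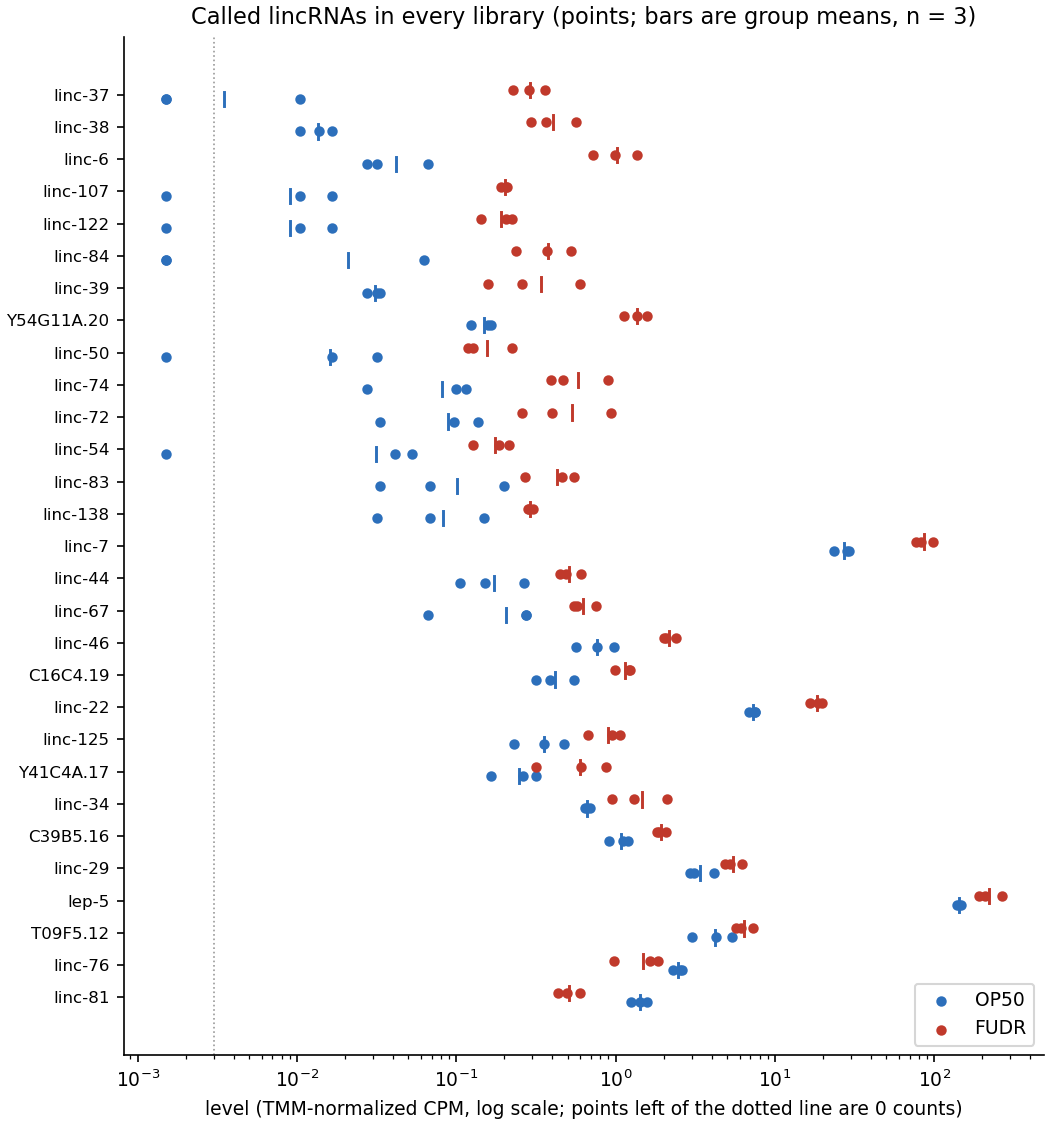
Level in every library, in TMM-normalized CPM on a log axis, for the 29 called lincRNAs, with values of 0 drawn left of the dotted line and a bar at each group mean. In all 29 the 3 OP50 and 3 FUDR points do not overlap, though they nearly touch for Y41C4A.17 and T09F5.12. For members that passed the filter through the FUDR libraries alone, that way of passing already required the separation before TMM.

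The remaining calls were less firm. C39B5.16 on chromosome III kept its call, at 1.07 ± 0.148 and 1.93 ± 0.143 CPM (SD, n = 3; log2 0.84, adjusted p = 0.00847). T09F5.12, with a log2 value of 0.60, was called at an adjusted p of 0.0463 and Y41C4A.17, with 1.26, at 0.0479. T09F5.12 was not called without any one library other than OP50 replicate 2 (0.0625 to 0.126), nor Y41C4A.17 without any one library other than FUDR replicate 1 (0.0648 to 0.173). The call of linc-29 (log2 0.67, adjusted p = 0.0150) was lost without OP50 replicate 2 (0.0611) or 3 (0.0575), and that of linc-67 (1.57, 0.0259) without FUDR replicate 2 (0.0981). The call of linc-44 (1.60, 0.0155) was lost without OP50 replicate 1 (0.0523) or 3 (0.0527), and that of linc-50 (3.08, 0.0145) without FUDR replicate 3 (0.0513). Without OP50 replicate 1, linc-50 stayed called at 4.12. For linc-138 (1.88, 0.0249) the call went on leaving out OP50 replicate 1 (0.0780) or 3 (0.0781), or in turn FUDR replicate 2 (0.0708) or 3 (0.0559). Without OP50 replicate 2 it stayed, at 2.54. For linc-83 (1.97, 0.0269) it went on leaving out OP50 replicate 2 (0.0747) or 3 (0.0849), or in turn FUDR replicate 3 (0.0718). Without OP50 replicate 1 it stayed, at 2.99. For linc-54 (2.32, 0.0289) it went on leaving out OP50 replicate 2 (0.0665) or 3 (0.0691), or in turn FUDR replicate 2 (0.0839) or 3 (0.0760). The replicate block also ended the calls of linc-54 (0.0601), T09F5.12 (0.0692) and Y41C4A.17 (0.0872). RLE scaling ended that of T09F5.12 (0.0521) and limma-voom that of Y41C4A.17 (0.0687). Both linc-50 and linc-54 passed the filter through the FUDR libraries alone. An exon of linc-138 is shared with another gene, and its body overlaps klf-3 on the same strand. The direction was upward in all of these repeats.

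Only 2 lincRNAs fell. The clearer was linc-81 (chromosome V, 19895684 to 19897795, minus strand), which overlaps no other gene. Its level was 1.58, 1.42 and 1.25 CPM with OP50 and 0.493, 0.433 and 0.594 CPM with FUDR. Every FUDR library was under the lowest OP50 library, and the level was 2.79-fold lower (log2 −1.48 ± 0.239 SE, adjusted p = 0.00163). The other, linc-76 (chromosome III, 11126863 to 11129355, minus strand), was at 2.61, 2.28 and 2.54 CPM with OP50 and at 1.85, 1.63 and 0.975 CPM with FUDR, a log2 change of −0.75 ± 0.241 (SE; adjusted p = 0.0352). It shares 9.39% of its exonic bases with Y48A6C.4 and Y48A6C.8, and the overlapping gene Y48A6C.4 on the opposite strand also fell, by 0.53 on the log2 scale. Leaving out OP50 replicate 1 (0.0858), 2 (0.0613) or 3 (0.0828) ended the linc-76 call, as did leaving out FUDR replicate 2 (0.0716), and it was also lost with upper-quartile scaling (0.0644) or library size alone (0.0902). Without FUDR replicate 3, 1 further member was called lower. This was Y71F9AM.9 (chromosome I, 2945180 to 2945697, minus strand), inside an intron of the Golgi complex gene cogc-3 on the opposite strand. It was at 6.32, 7.70 and 6.73 CPM with OP50 and at 1.80, 1.76 and 5.65 CPM with FUDR. A pair of FUDR libraries was far below the rest, and FUDR replicate 3 was just under the OP50 range. The log2 change of −1.16 ± 0.422 (SE) was not called (adjusted p = 0.0577), and without FUDR replicate 3 the adjusted p was 4.22e-05. It was also called lower with limma-voom (0.0186), the non-robust fit (0.0498) and the replicate block (0.0219). The host gene cogc-3 was level at 59.6 ± 3.05 and 59.7 ± 2.74 CPM (SD, n = 3).

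Some lincRNAs of like abundance were close to level. F19G12.10 on chromosome X was at 4.30 ± 0.172 and 4.43 ± 0.304 CPM (SD, n = 3), a log2 difference of 0.04 ± 0.128 (SE). The chromosome II gene linc-4 was at 2.70 ± 0.250 and 2.66 ± 0.465 CPM, and linc-82 on chromosome III at 2.59 ± 0.370 and 2.57 ± 0.476 CPM, each with a log2 difference of −0.02. For linc-11 the log2 difference was −0.22 ± 0.215 (SE; adjusted p = 0.435). These SEs leave room for small differences in either direction. The well expressed members M04F3.7 and linc-15 had log2 differences of 0.29 and 0.33 that were not called (adjusted p = 0.239 and 0.0915).

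Of the 16 members within 5 kb of another member, no pair was called. The row H09G03.1, H09G03.4 and H09G03.5 on chromosome III had log2 differences of 0.61, −0.07 and 1.09, none called. The nearest protein-coding gene to all of them, Y53G8AL.1, rose 10.7-fold from 1.30 ± 0.121 to 13.8 ± 1.47 CPM (SD, n = 3; adjusted p = 6.32e-06). In the row linc-41 and linc-21 on chromosome IV the log2 differences were 0.47 and 0.26, and in the pair linc-19 and linc-45 on chromosome III they were −0.35 and 0.53.

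The rises were most frequent on chromosomes II and X. On chromosome II 10 of 21 tested members were called higher and on X 8 of 14, with median log2 fold changes of 1.32 and 1.23. The other chromosomes had 2 of 11 on I, 3 of 16 on III, 2 of 7 on IV and 2 of 9 on V, with medians of 0.67, 0.57, 0.32 and 0.38. Over all genes the share called higher was 19.1% on II and 18.5% on X, and it was highest on V at 25.1%. With so few members a chromosome these are descriptions only.

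The nearest protein-coding genes were read beside the lincRNAs and beside all tested genes, of which 20% were called higher and 21% lower. A tested nearest protein-coding gene was available for 69 of the 78 tested members. Called members were 27 higher and 2 lower, so a pair that agrees is mostly one with a neighbour called higher. Of the pairs in which both were called, 11 of 13 went the same way: 9 with both higher and 2 with both lower. Pairs separated by 1 to 1000 bp held most of them. In that band 12 called-higher members had a tested neighbour, of which 7 were called higher and 0 lower, while among the neighbours of the 20 other members 4 were higher and 7 lower. Beyond 1000 bp the 8 tested neighbours of called-higher members held 1 higher and 2 lower. Across the 32 close pairs the log2 fold changes of lincRNA and neighbour had a Pearson r of 0.60 and a Spearman rho of 0.44, and across the 28 distant pairs −0.09 and −0.14. Without linc-38 and linc-122, the members farthest from the median, the close pairs had 0.62 and 0.43. These are correlations across genes measured in the same libraries, some pairs share a neighbour, and they carry no test. The close called-higher members linc-38, linc-39, linc-74, linc-84 and linc-122 passed the filter through the FUDR libraries alone, which required a high FUDR level. Of these, linc-38, linc-39 and linc-84 had a neighbour called higher.

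**Figure D5:**
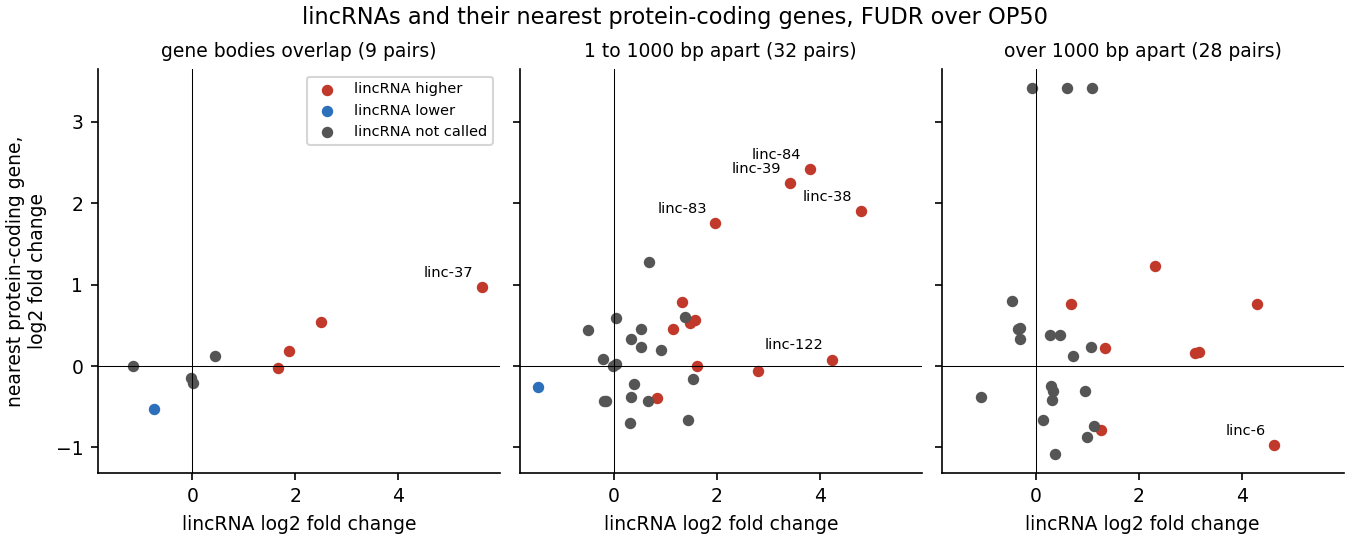
Log2 fold change of the nearest protein-coding gene against that of the lincRNA, in 3 panels for 9 pairs with overlapping gene bodies, pairs 1 to 1000 bp apart and pairs more than 1000 bp apart, with points coloured by the call of the lincRNA. In the close pairs Pearson r was 0.60 over 32 pairs, and in the distant pairs −0.09 over 28. Some lincRNAs in these pairs passed the filter through the FUDR libraries alone.

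Divergent pairs, with adjacent start sites and transcription in opposite directions, made up most of these. In 11 close head-to-head pairs 8 lincRNAs and 7 neighbours were called higher, beside 20% of all tested genes, and in 6 pairs both were. In 13 close same-strand pairs 1 lincRNA and 1 neighbour were higher and in 0 pairs both, and in 8 tail-to-tail pairs the numbers were 3, 3 and 1. The 6 divergent pairs were linc-38 with the lysozyme gene lys-1, linc-83 with the GATA factor gene elt-4, linc-125 with the aquaporin gene aqp-1, linc-34 with F02C12.1, linc-67 with C10A4.10 and linc-84 with F55H12.7. The lys-1 transcript, 551 bp from linc-38, rose from 335 ± 80.2 to 1256 ± 89.6 CPM (SD, n = 3), 3.75-fold (adjusted p = 0.000164). The elt-4 transcript, 625 bp from linc-83, rose from 0.398 ± 0.129 to 1.33 ± 0.254 CPM, 3.37-fold (adjusted p = 0.00235), and aqp-1, 599 bp from linc-125, from 49.8 ± 4.30 to 85.6 ± 7.52 CPM, 1.72-fold (0.000551). F02C12.1 rose by 0.45 on the log2 scale (adjusted p = 0.00829). C10A4.10 rose by 0.56 (0.0171), a call that ended on leaving out OP50 replicate 1 (0.0532) or 2 (0.0509), or in turn FUDR replicate 2 (0.0677). F55H12.7 rose by 2.42 from a level of 0.0381 CPM (0.0220), a call that ended on leaving out OP50 replicate 2 (0.0733) or 3 (0.0721), or in turn FUDR replicate 2 (0.0521) or 3 (0.0739). In 4 of these pairs the lincRNA call itself was lost without some library, as given above for linc-34, linc-67, linc-83 and linc-125. The other lincRNAs of these pairs, linc-38 and linc-84, passed the filter through the FUDR libraries alone. The other 5 divergent neighbours varied. The intermediate filament gene ifb-1, 217 bp from linc-122, was at 354 ± 7.05 and 373 ± 15.3 CPM, a log2 difference of 0.08, and K05F1.6 near linc-44 and bath-10 near linc-11 were not called either. Beside uncalled lincRNAs, rilp-1 near linc-95 fell by 0.70 (0.000693) and msrp-5 near linc-66 rose by 0.33 (0.0380). The msrp-5 call ended on leaving out OP50 replicate 1 (0.116) or 3 (0.136), or in turn FUDR replicate 2 (0.0603) or 3 (0.0802), and with DESeq2 (0.0580) or the replicate block (0.0608).

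Neighbour pairs in other arrangements went both ways. T04D1.2, tail to tail with linc-39 at 326 bp, rose by 2.25 on the log2 scale (adjusted p = 0.000533). M163.1, 1876 bp downstream of linc-54 on the same strand, rose by 1.23 (0.000427). The bZIP transcription factor gene zip-2, which acts in responses to infection, rose from 143 ± 24.1 to 279 ± 55.4 CPM (SD, n = 3), 1.95-fold (0.00246). Since 25.8% of the exonic bases of linc-37 lie in zip-2 exons on the same strand, the reads of these genes cannot be told apart there. Against the direction of their lincRNAs, F52D2.12 near linc-6 fell by 0.98 (0.00044) and the T-box gene tbx-33 near Y41C4A.17 fell by 0.79 (0.00332). The catalase gene ctl-3 near Y54G11A.20 was not called (0.17, adjusted p = 0.566). Beside linc-81, fars-2 fell by 0.26 (0.0352), a call lost with upper-quartile scaling (0.310), library size alone (0.824) or a filter of 1 CPM (0.0510). It also ended on leaving out OP50 replicate 2 (0.129) or 3 (0.129), or in turn FUDR replicate 1 (0.0619) or 2 (0.112).

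The counts were also taken by overlap with other genes, to be read beside 20% higher and 21% lower over all tested genes. They were not split by how members passed the filter. Of all 27 rises, 10 were in members that passed through the FUDR libraries alone. Of the 62 tested members that share no exon with another gene, 21 were called higher and 1 lower, with a median log2 fold change of 0.62. Among the 16 that share one, 6 were higher and 1 lower. Of the 57 tested members whose body overlaps no gene at all, 20 were higher and 1 lower, with a median of 0.65. Members with a linc- symbol and those with other names had 21 of 60 and 6 of 18 called higher.

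Other classes of noncoding RNA gave mixed values. The 128 tested genes of biotype ncRNA had 44 called higher and 9 lower with a median log2 fold change of 0.62, close to the lincRNAs, and the 13 tested antisense RNAs had 6 and 0 with a median of 0.84. The 750 tested pseudogenes had 129 and 82 with a median of 0.05, and the 25 tested small nucleolar RNAs 10 and 5 with a median of −0.02. Among protein-coding genes 19.8% were called higher and 21.7% lower, with a median of 0.05. The difference between these classes was not tested.

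Some genes listed under exosome and decay or under Integrator were called lower, to be read beside the 21% of all tested genes called lower and the 36.9% of those at 10 CPM or more. Whether each listed gene acts on noncoding transcripts was not tested. The exosome and decay list held 16 symbols, of which 15 matched a gene and 14 were tested. Of these 4 fell: the exosome subunit gene exos-2 by 0.58 on the log2 scale (adjusted p = 0.000817), the nuclease gene crn-4 by 0.65 (0.00377), the exoribonuclease gene xrn-2 by 0.44 (0.0149) and the helicase gene skih-2 by 0.48 (0.00566). The exosome subunit gene crn-5 rose by 0.69 (0.00362), and the median of the list was −0.07. The exosome subunit gene exos-4.1 was listed at 0 in every library. Integrator is the complex that cleaves small nuclear and other noncoding transcripts as they are made. Of its 14 listed symbols 11 matched a gene, and all 11 were tested. Of these 5 were lower: ints-1 by 0.77 (adjusted p = 0.000828), ints-2 by 0.54 (0.00178), ints-3 by 0.80 (0.000533), ints-6 by 0.25 (0.0341) and ints-11 by 0.42 (0.00221), with 0 higher and a median of −0.19. The ints-6 call ended on leaving out OP50 replicate 2 (0.117) or 3 (0.123), or in turn FUDR replicate 2 (0.0798), and with upper-quartile scaling (0.283). With library size alone the calls of ints-6 (0.844), ints-11 (0.0682) and xrn-2 (0.0915) were lost. Germline markers were lower in the same libraries, by a median of −0.73 on the log2 scale, and their part in these values was not tested.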

How the data were processed

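RNA of whole worms was measured in 3 OP50 and 3 FUDR libraries, grouped by the labels. The authors deposited raw read counts per gene. STAR, HTSeq and the build WBcel235 are named per the submitters' processing notes, and poly(A) selection and the NEBNext Ultra kit per the labels' protocols. The sources used here do not give their versions, the annotation release or the strand setting. HTSeq summary rows, between 4.55% and 5.33% of all counts, were left out of library sizes and tests. Positions and biotypes came from the Ensembl release 115 annotation, which matched all 46926 identifiers.

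All genes were fitted together with edgeR 4.0.16 in R 4.3.3: filterByExpr by group (minimum count 10, minimum total 15), TMM, robust quasi-likelihood F test, Benjamini-Hochberg adjustment over all 17022 tested genes and a threshold of 0.05. All p-values are two-sided and come from this fit. The SE of a log2 fold change is its size over the square root of F. The script was tested on simulated data. Intervals and the level of 3 counts cover counting error only.

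Members and lists were chosen with earlier results of these data known. Members named in full are the 8 with the largest change in each direction among called members of at least 0.5 CPM without overlap of the groups (the 8 higher, and the 2 that fell), the 6 highest by RPKM, the 4 with the smallest change at 1 CPM or more and those with a described role. Whether the libraries of a group are separate cultures is not stated in the labels, and p-values therefore reflect only how far these libraries differ, which may be technical variation. No pair within a group agreed within sampling noise (chi-square per degree of freedom 18.9 to 167). Alternatives were DESeq2 1.42.0, limma 3.58.1 with voom, other scalings and filters, a replicate block, leaving out each library in turn, and testing against a change of 1.5-fold. GC content and sequences were not analysed here.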

Additional observations from a re-analysis of the deposited data

How the results depend on the processing

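The members called higher (27) were 10 of 27 tested with a filter of 1 CPM in 3 libraries and 13 in a test against a 1.5-fold change, both stricter by construction, and 20 to 31 when 1 library was left out. Of all genes 23.1% were called higher with the 1 CPM filter, 5.13% in the 1.5-fold test and 13.5% to 19.7% when 1 library was left out. The members called lower (2) were 1 with upper-quartile scaling, library size alone, the 1.5-fold test or members that share no exon with another gene, and 1 to 3 when 1 library was left out: 1 on leaving out any single OP50 library or FUDR replicate 2, and 3 without FUDR replicate 3. Of all genes 14.6% were called lower with upper-quartile scaling, 11.3% with library size alone and 2.16% in the 1.5-fold test. When 1 library was left out, this share ran from 15.5% to 22.2%. The median log2 fold change (0.61) was 0.762 with upper-quartile scaling, 0.840 with library size alone, 0.949 without a filter (164 members) and 0.337 with the 1 CPM filter, and 0.535 to 0.789 when 1 library was left out. The median of all genes moved up by 0.15 and 0.23 in those scalings, and the members' median stayed 0.56 above it in both. The summed level ratio (1.62) was 1.90 as a share of all gene counts and 1.498 to 1.70 when 1 library was left out. DESeq2, voom, RLE scaling, no filter and the non-robust fit gave 26 to 30 higher and 2 or 3 lower. With a filter of 60 counts over all libraries, chosen after seeing the data, 23 of 73 were higher, beside 19.9% of all genes. FUDR counts alone can reach such a total. The replicate block gave 24 higher and 3 lower with a median of 0.636, beside 18.9% and 20.8% of all genes. Same-numbered libraries deviated together with correlations of 0.0551, −0.0166 and 0.0576, so the numbers were not taken as pairs. Of the 29 calls, 17 held under every alternative with a value, the 1.5-fold test apart, and no direction reversed. Depth limits the rarest members: under 3 counts a library, expression cannot be told from none.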
